A study of Mus musculus with 14 samples.

Results

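The 10 genes described here are known markers of the fibroblasts of the aortic adventitia, and their transcripts were followed through a mouse model of thoracic aortic aneurysm: Pi16, Dpt, Cd34, Ly6a, Clec3b, Scara5, Dpp4, Col14a1, Ccl11 and Gsn. They were taken by gene symbol, each matching 1 row, from a table of 32289 genes, and all 10 were among the 13294 genes expressed highly enough to be tested.

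The tissue was ascending aorta from C57BL/6 mice at 6 weeks of modelling, profiled by bulk RNA sequencing. The 4 groups were mice given PBS (3 libraries), mice given β-aminopropionitrile, or BAPN, alone (4 libraries), mice given BAPN with Cilengitide (3 libraries) and mice given BAPN with SB273005 (4 libraries). BAPN inhibits lysyl oxidases, the enzymes by which collagen and elastin fibres are cross-linked. Cilengitide is a cyclic peptide carrying the RGD motif that αV integrins bind, and the labels name SB273005 as another inhibitor of integrin αV. Both inhibitor groups therefore carried BAPN as well, so there was no group with an inhibitor alone. The labels give no dose, sex or age, and they do not say that each library came from a separate animal, so the p-values cover no more than the spread seen between libraries, which may be technical.

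The adventitia is the outer coat of the artery, a loose collagenous layer that holds fibroblasts, nerves, small vessels and resident immune cells. Its fibroblasts include a population known for Pi16, Cd34, Ly6a and Dpp4, often described as a source from which more specialised fibroblasts arise, and one richer in matrix genes such as Dpt and Col14a1. Several of these genes are not private to fibroblasts: Cd34 and Ly6a are also made by endothelial cells, and Gsn by smooth muscle. In whole tissue, fewer cells of a type and less RNA per cell cannot be told apart.

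Total estimated counts ran from 49027885 to 72584877 per library. Fibroblast genes were present throughout: Pdgfra, Lum, Dcn, Serpinf1, Fbln1 and Pcolce summed to 297 to 506 FPKM (fragments per kilobase of transcript, set relative to the fragments of the whole library) in PBS and to 509 to 1207 FPKM in the libraries with BAPN, and none was at 0 in a whole group. The 7 smooth muscle markers summed to 1183 FPKM in SB273005 replicate 2 and to between 4583 and 10689 FPKM elsewhere. The class II gene H2-Ea, known to be silent in this strain, had 0 counts in all 3 PBS libraries and in SB273005 replicates 1 to 3, 6 libraries in all, and 83 to 130 counts in each of the other 8. The kidney gene Umod parted the same libraries, at 7.73 to 11.6 FPKM in those 6 and 19.8 to 25.8 FPKM in the other 8. The labels do not mention these library sets. The contrasts of BAPN and of Cilengitide with PBS run wholly across them, and those of SB273005 with BAPN and with Cilengitide do so for all SB273005 libraries but replicate 4. In the first pair, library set and group can be separated in a fit only through that 1 library.

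Gsn, the most abundant of the 10 genes, is read from 2 distant start sites, so the sequences in front of them are shown. Each window is the 250 bases before a RefSeq start on the plus strand of chromosome 2 (GRCm38.p6, the assembly also called mm10). The first lies before a RefSeq start at chr2:35256359, close upstream of chr2:35256380, where the transcript Gsn-205 begins. The second, inside an intron of Gsn-205, lies before the start of Gsn-201. Capitals mark GC boxes (GGGCGG on either strand) and CCAAT boxes (CCAAT on either strand).
Gsn upstream start, chr2:35256109-35256358: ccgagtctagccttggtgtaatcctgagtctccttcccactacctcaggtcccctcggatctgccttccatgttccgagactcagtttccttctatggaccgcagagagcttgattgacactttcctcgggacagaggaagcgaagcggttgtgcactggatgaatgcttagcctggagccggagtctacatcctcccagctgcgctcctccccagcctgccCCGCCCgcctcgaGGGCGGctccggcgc
Gsn downstream start, chr2:35282130-35282379: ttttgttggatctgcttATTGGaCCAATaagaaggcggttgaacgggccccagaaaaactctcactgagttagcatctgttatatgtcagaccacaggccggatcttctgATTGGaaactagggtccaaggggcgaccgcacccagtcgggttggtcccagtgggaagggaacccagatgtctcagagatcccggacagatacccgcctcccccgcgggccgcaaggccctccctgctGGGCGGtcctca
The upstream window held 2 GC boxes, whose first letters lay 28 and 15 bases before the start, and no CCAAT box. In the downstream window 1 GC box lay 12 bases before the start and 3 CCAAT boxes lay at 233, 227 and 140 bases. No match overlapped another. Among 32851 RefSeq windows of this length, 32.7% held a GC box and 33.8% a CCAAT box. The TATA box, TATAAA, was searched on both strands as well, was in neither window and stood in 12.4% of all windows. The AP-1 motif TGANTCA and the TEAD motif GGAATG, searched likewise, were in neither window and stood in 6.75% and 12.6% of all windows. RefSeq has another Gsn window between these, before a start at chr2:35266744, near which no transcript described here begins. RefSeq windows were matched for 5 of the 10 genes: Gsn, Pi16, Dpp4, Dpt and Cd34. That of Pi16 held a CCAAT box 64 bases before a RefSeq start at chr17:29318882. The main transcript, Pi16-202, begins upstream of that start, at chr17:29318824. The Dpp4 window held TATAAA at 227 bases and GGAATG in reverse complement at 118 bases. In those of Dpt and Cd34 none of the 5 motifs was found.

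The 10 markers did not behave as a block. Mean levels of Dpt, Col14a1 and Cd34 were above PBS in each group that received BAPN, with or without an inhibitor. Those of Ccl11, Scara5 and Ly6a were highest under BAPN alone and lower under either inhibitor. Pi16, Clec3b and Gsn were also at their highest mean under BAPN alone, and their means under both inhibitors lay below PBS, while Dpp4 was low in all groups. Of all these differences, that of Col14a1 between SB273005 and PBS was the single one past the test's threshold.

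**Figure D1:**
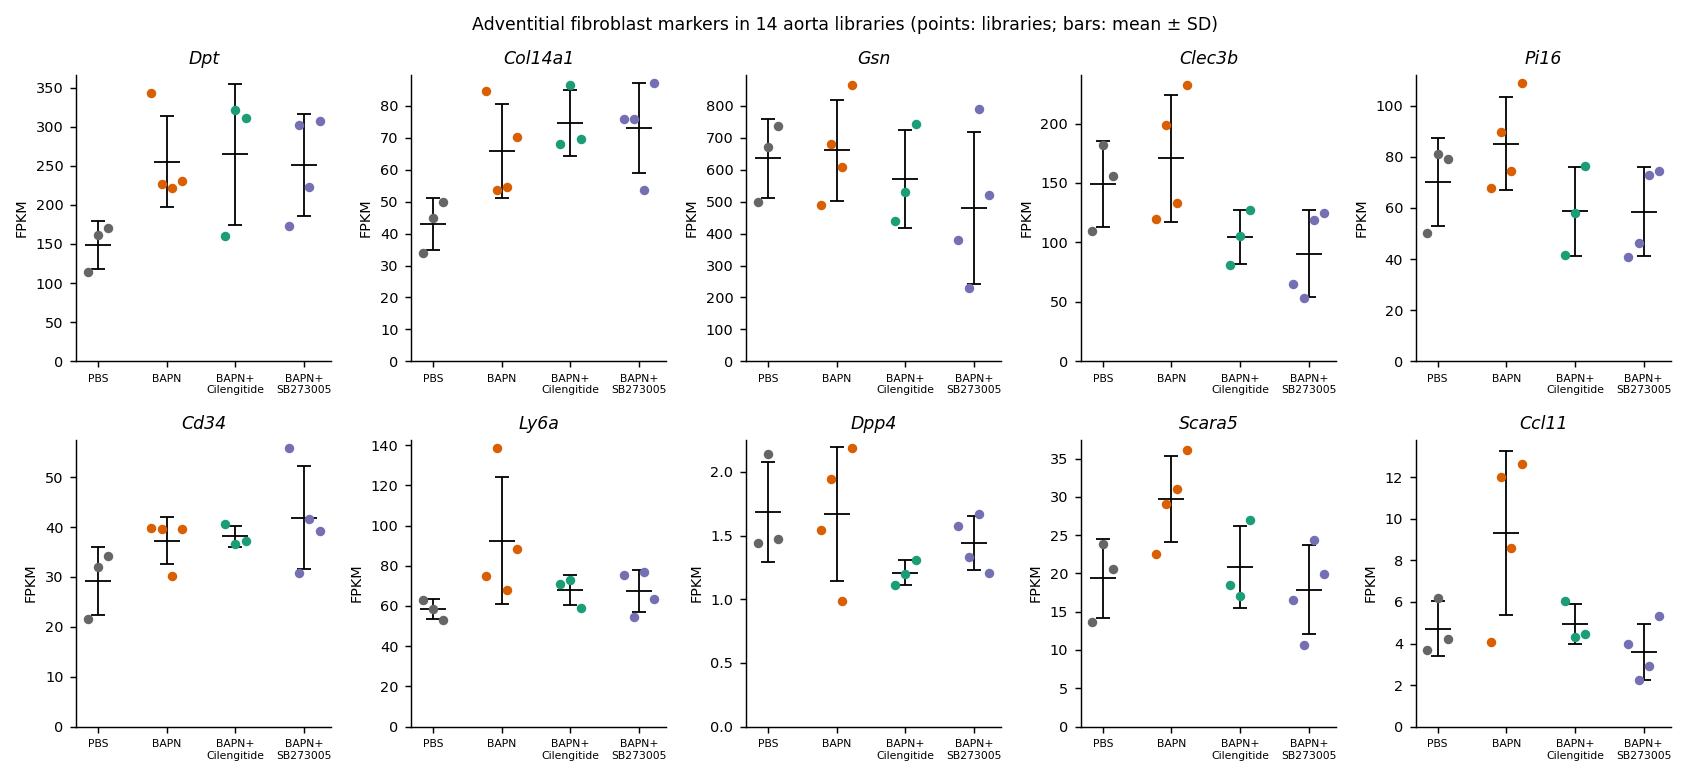
Level of each marker (y axis, FPKM, from 0) in every library, with the 4 groups on the x axis; points are libraries and bars give the mean ± SD. Dpt and Col14a1 lie above PBS in all 4 BAPN libraries, while the Ccl11, Scara5, Clec3b and Pi16 points of the inhibitor groups lie in or below the range of the BAPN libraries.

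The matrix genes come first. Dpt encodes dermatopontin, a small matrix protein that binds decorin and helps to organise collagen fibrils; the gene, ENSMUSG00000026574, lies at chr1:164796644-164824266 (mm10, plus strand). Dpt measured 114, 161 and 170.3 FPKM in the PBS libraries. Under BAPN it measured 342, 227, 222 and 230.2 FPKM. All 4 BAPN libraries were above all 3 PBS libraries, and replicate 1 stood well over the other 3. With Cilengitide the values were 161, 321 and 312 FPKM, and with SB273005 they were 172, 302, 223 and 307 FPKM. The SB273005 libraries all exceeded PBS, if narrowly in replicate 1, whereas Cilengitide replicate 1 fell within the PBS range. The log2 difference from PBS was 0.77 ± 0.29 for BAPN (edgeR adjusted p = 0.290), 0.87 ± 0.31 for Cilengitide (adjusted p = 0.127) and 0.81 ± 0.29 for SB273005 (adjusted p = 0.0857); none passed 0.05. In DESeq2 the inhibitor groups passed, with an adjusted p of 0.0440 for Cilengitide and 0.0311 for SB273005.

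Col14a1 encodes a chain of collagen XIV, which sits on the surface of collagen fibrils (ENSMUSG00000022371, chr15:55307750-55520803, plus strand). In PBS it measured 33.9, 45.0 and 50.0 FPKM, and under BAPN 84.6, 53.6, 54.7 and 70.4 FPKM. With Cilengitide it measured 68.0, 86.4 and 69.5 FPKM and with SB273005 75.9, 75.9, 53.6 and 87.1 FPKM. Every library with BAPN was above every PBS library, so the gene parted PBS from each of the other groups. Group means went from 43.0 ± 8.26 FPKM in PBS to 65.8 ± 14.7 under BAPN, 74.7 ± 10.2 with Cilengitide and 73.1 ± 14.1 with SB273005 (SD, n = 3, 4, 3 and 4), and the last 3 lay within their spread of one another. Col14a1 rose in SB273005 against PBS by a log2 difference of 0.82 ± 0.22 (edgeR adjusted p = 0.0319). The differences of 0.83 ± 0.24 for Cilengitide (adjusted p = 0.0580) and 0.61 ± 0.22 for BAPN (adjusted p = 0.272) did not pass. The call for SB273005 held in 9 of 14 fits that each left out 1 library. It was lost without PBS replicate 1 (log2 0.64, adjusted p = 0.108), without PBS replicate 2 (adjusted p = 0.0779), and without SB273005 replicate 1 (0.0565), 2 (0.0503) or 4 (0.0556). Among SB273005 replicates 1 to 3 and PBS alone, which share a library set, Col14a1 differed by 0.74 and did not pass (adjusted p = 0.159). Why the call was lost there was not tested. With the replicate number as a block the difference was 0.74 (adjusted p = 0.0713).

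Gsn encodes gelsolin, which cuts and caps actin filaments and also has a secreted plasma form (ENSMUSG00000026879, chr2:35256380-35307892, plus strand). It measured 499, 671 and 738 FPKM in PBS and 488, 682, 609 and 867 FPKM under BAPN. With Cilengitide the values were 441, 530.4 and 743 FPKM and with SB273005 381, 230.3, 789 and 520.0 FPKM. All groups overlapped, and SB273005 alone held both the second highest and the lowest of the 14 values. SB273005 replicate 2, the lowest, is also the library lowest in smooth muscle markers; the part of smooth muscle in the level of Gsn was not tested. The log2 difference of SB273005 from PBS was -0.37 ± 0.34 (adjusted p = 0.507), and -0.17 without that library.

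Pi16, a secreted or membrane-anchored peptidase inhibitor that names the adventitial population (ENSMUSG00000024011, chr17:29317680-29330593, plus strand), measured 50.2, 81.0 and 79.0 FPKM in PBS. BAPN libraries gave 67.7, 89.8, 74.3 and 109 FPKM, Cilengitide libraries 41.4, 58.1 and 76.4 FPKM and SB273005 libraries 40.7, 46.3, 72.7 and 74.3 FPKM. The groups overlapped throughout; the highest value was in BAPN replicate 4 and the lowest in SB273005 replicate 1. Clec3b encodes tetranectin, a plasminogen-binding lectin (ENSMUSG00000025784, chr9:123150946-123157432, plus strand). It measured 110.0, 182 and 156 FPKM in PBS, 119.6, 199, 133 and 232 under BAPN, 81.1, 106 and 127 with Cilengitide and 64.9, 53.6, 119 and 125 with SB273005. The lowest 3 values were Cilengitide replicate 1 and SB273005 replicates 1 and 2, and no inhibitor library reached the 2 highest BAPN or the 2 highest PBS libraries. Against BAPN, Clec3b differed by -0.67 ± 0.33 with Cilengitide (adjusted p = 0.795) and by -0.87 ± 0.30 with SB273005 (adjusted p = 0.215). For Pi16 the same differences were -0.50 ± 0.28 (adjusted p = 0.801) and -0.49 ± 0.26 (adjusted p = 0.364). Neither gene passed in any of the 6 comparisons in the fit by group. With the replicate number as a block, Clec3b passed in SB273005 against PBS, at -0.86 (adjusted p = 0.0345), where the fit without it gave -0.68 ± 0.32 (adjusted p = 0.175).

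Cd34, Ly6a and Dpp4 are cell surface proteins used to sort these cells. Cd34, a sialomucin of progenitors and endothelium (ENSMUSG00000016494, chr1:194938819-194961279, plus strand), measured 21.5, 32.1 and 34.2 FPKM in PBS and 39.7, 39.7, 30.2 and 39.6 FPKM under BAPN. With Cilengitide it measured 40.6, 36.6 and 37.3 FPKM and with SB273005 55.8, 30.9, 41.6 and 39.3 FPKM. The Cilengitide libraries were all above PBS, while BAPN replicate 3 and SB273005 replicate 2 fell inside the PBS range. The log2 difference from PBS was 0.34 ± 0.20 (adjusted p = 0.579), 0.41 ± 0.21 (adjusted p = 0.309) and 0.56 ± 0.20 (adjusted p = 0.0868) for BAPN, Cilengitide and SB273005. The last passed in DESeq2 (adjusted p = 0.0469), and in edgeR without SB273005 replicate 2 (0.66, adjusted p = 0.0484). Summed over 8 genes, endothelial markers were at 72.3 to 86.0 FPKM in PBS and at 70.8 to 129 FPKM with SB273005. There 1 of the 8, Cdh5, rose, against 7.82% of all genes tested. Of the 8 differences, 6 were above 0 and 2 below, those of Pecam1 (-0.36, adjusted p = 0.207) and Vwf (-0.11, adjusted p = 0.827). None of the 8 genes was at 0 in a whole group, and their part in the level of Cd34 was not tested.

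Ly6a encodes the GPI-anchored stem cell antigen Sca-1 (ENSMUSG00000075602, chr15:74994877-74998031, minus strand) and belongs to a cluster of close paralogs, so its counts are less certain. Its values were 63.2, 58.4 and 53.3 FPKM in PBS, 75.1, 138, 68.2 and 88.6 under BAPN, 70.9, 73.1 and 59.2 with Cilengitide and 75.5, 54.3, 76.7 and 63.7 with SB273005. All BAPN libraries exceeded all PBS libraries, and BAPN replicate 2 was far above the rest. The difference of BAPN from PBS was 0.67 ± 0.21 (unadjusted p = 0.00643, adjusted p = 0.177) and 0.41 without BAPN replicate 2 (adjusted p = 0.282). Against BAPN, both inhibitor groups differed by -0.41 (adjusted p = 0.795 for Cilengitide and 0.313 for SB273005). Dpp4, a membrane peptidase that trims chemokines and incretins (ENSMUSG00000035000, chr2:62330073-62412231, minus strand), was the least abundant marker, at 1.44, 2.14 and 1.47 FPKM in PBS, 1.54, 1.94, 0.988 and 2.19 under BAPN, 1.11, 1.20 and 1.31 with Cilengitide and 1.57, 1.33, 1.67 and 1.20 with SB273005. Cilengitide libraries lay below all PBS libraries, by a margin smaller than the spread within PBS, and the log2 difference was -0.45 ± 0.26 (adjusted p = 0.370). Its estimated counts were 413 to 1005 per library.

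Scara5, a scavenger receptor that takes up ferritin (ENSMUSG00000022032, chr14:65666403-65764826, plus strand), measured 13.7, 23.8 and 20.6 FPKM in PBS and 22.5, 29.1, 31.0 and 36.2 FPKM under BAPN. It was at 18.5, 17.0 and 27.0 FPKM with Cilengitide and 16.6, 10.6, 24.4 and 19.9 FPKM with SB273005. The 3 highest of all 14 values were BAPN libraries, yet BAPN replicate 1 was inside the PBS range. Scara5 differed from PBS by 0.61 ± 0.28 under BAPN (adjusted p = 0.410), and SB273005 differed from BAPN by -0.69 ± 0.25 (adjusted p = 0.231). Without PBS replicate 1, the lowest PBS library, the first of these was 0.39 (adjusted p = 0.791).

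Ccl11, or eotaxin, is a chemokine that draws eosinophils through the receptor CCR3 (ENSMUSG00000020676, chr11:82057823-82062955, plus strand). It measured 3.70, 6.20 and 4.20 FPKM in PBS, and 4.05, 12.0, 8.58 and 12.6 FPKM under BAPN. With Cilengitide it was at 6.04, 4.30 and 4.46 FPKM and with SB273005 at 3.97, 2.22, 2.91 and 5.32 FPKM. BAPN replicates 2 to 4 were above all other libraries, and BAPN replicate 1 was among the PBS values. Mean levels were 4.70 ± 1.32 FPKM in PBS, 9.32 ± 3.94 under BAPN, 4.94 ± 0.963 with Cilengitide and 3.61 ± 1.35 with SB273005 (SD). In these comparisons Ccl11 had the widest differences of the 10 genes: 0.98 ± 0.39 for BAPN against PBS (adjusted p = 0.319), -0.88 ± 0.39 for Cilengitide against BAPN (adjusted p = 0.795) and -1.32 ± 0.36 for SB273005 against BAPN (unadjusted p = 0.00272, adjusted p = 0.160). None passed in edgeR. With library set as a term the first was 0.16 (adjusted p = 0.950), less wide than those of Clec3b, Dpt and others. DESeq2 called the last (-1.33, adjusted p = 0.0179), and edgeR's adjusted p came down to 0.0513 without BAPN replicate 1. Compared with BAPN, SB273005 replicate 4, which shares the library set of BAPN, differed by -0.76 (adjusted p = 0.948 with this 1 library, assumed to vary like the others). Estimated counts of Ccl11 were 160 to 951 per library.

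BAPN alone against PBS asks what the aneurysm model did to the adventitial markers. Differences were above 0 for 9 of the 10 genes, led by Ccl11, Dpt, Ly6a, Col14a1 and Scara5, with Dpp4 at -0.03 and Gsn at 0.05. Their median was 0.47 on the log2 scale, against 0.0016 over all genes tested. None of the 10 passed edgeR, where 0.233% of all genes tested passed in either direction and 0.181% rose, and none passed DESeq2 or limma on log2(FPKM + 1). At an unadjusted p under 0.05 there were 5 of the 10, against 12.0% of all genes. Dpt, Ly6a and Col14a1 did not overlap between the groups and were higher under BAPN; of all genes, 14.6% did not overlap and 7.02% were higher. With the library set as a term, added after seeing the data and resting on SB273005 replicate 4 to link the sets, Ccl11 was at 0.16 (adjusted p = 0.950), Col14a1 at 0.26 (0.844), Dpt at 0.38 (0.827), Scara5 at 0.38 (0.822) and Ly6a at 0.78 (0.569). Dpp4 was at 0.31, and Pi16 (-0.22), Clec3b (-0.48) and Gsn (-0.13) turned negative.

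Cilengitide with BAPN against PBS, which shares the PBS libraries with the comparison above, had 6 differences above 0 and 4 below. Dpt (0.87), Col14a1 (0.83) and Cd34 (0.41) were the widest upward, and Clec3b (-0.48) and Dpp4 (-0.45) downward. The median was 0.11, against -0.018 over all genes. None of the 10 passed edgeR, against 5.58% of all genes in either direction and 3.98% that rose, and 2 of the 10 were under an unadjusted p of 0.05, against 20.2% of all genes. DESeq2 called Dpt and Col14a1, and limma called none. The shares of all genes passing are those of edgeR, and that of DESeq2 is not given. Cd34 and Col14a1 were higher and Dpp4 lower without overlap, while 31.9% of all genes did not overlap and 13.5% were higher. With library set as a term, Dpt was at 0.48, Col14a1 at 0.49 and Cd34 at 0.53, Clec3b was at -1.15, Pi16 at -0.72 and Ccl11 at -0.72, and none passed.

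SB273005 with BAPN against PBS had the most calls among all genes, 13.2% in either direction and 7.82% that rose, and 1 of the 10 markers, Col14a1. Dpt and Cd34 were the next upward, at 0.81 and 0.56, while Clec3b (-0.68), Gsn (-0.37), Ccl11 (-0.34) and Pi16 (-0.22) were below 0. In all, 4 were above 0 and 6 below, with a median of -0.13 against 0.021 over all genes. At an unadjusted p under 0.05 there were 3, against 29.1% of all genes. DESeq2 called Dpt, Cd34 and Col14a1, and limma called 1, Col14a1. The share of all genes that DESeq2 or limma called is not given, so these counts cannot be set against the edgeR share. Dpt and Col14a1 did not overlap with PBS and were higher; of all genes 23.2% did not overlap and 9.15% were higher. Within the library set shared by PBS and SB273005 replicates 1 to 3, the differences were 0.72 for Dpt, 0.60 for Cd34, -0.87 for Clec3b and -0.58 for Ccl11, none of which passed.

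Against BAPN alone, which asks what each inhibitor changed in the model, 7 of the 10 markers were below 0 in both comparisons, and both share the BAPN libraries. Ccl11, Clec3b, Pi16, Scara5, Ly6a, Dpp4 and Gsn made up the 7, while Dpt, Cd34 and Col14a1 lay between 0.04 and 0.23. The median was -0.42 for each inhibitor, against -0.0075 over all genes for Cilengitide and 0.019 for SB273005. In Cilengitide against BAPN none of the 10 passed, as none of all genes did (0%); Ccl11 was under an unadjusted p of 0.05, against 6.07% of all genes, and neither DESeq2 nor limma called any marker. In SB273005 against BAPN none of the 10 passed edgeR, against 0.0301% of all genes. Ccl11, Clec3b and Scara5 were under an unadjusted p of 0.05, against 16.1% of all genes. DESeq2 called Ccl11 and limma none, and the share of all genes that DESeq2 called is not given. No marker was without overlap in either comparison, against 10.5% of all genes with Cilengitide and 7.87% with SB273005. Cilengitide and BAPN lie in the same library set, but SB273005 replicates 1 to 3 and BAPN do not. With library set as a term, SB273005 against BAPN gave Ccl11 -0.76, Scara5 -0.52, Clec3b -0.40 and Pi16 -0.14, with the same 7 markers below 0 and none passing.

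**Figure D2:**
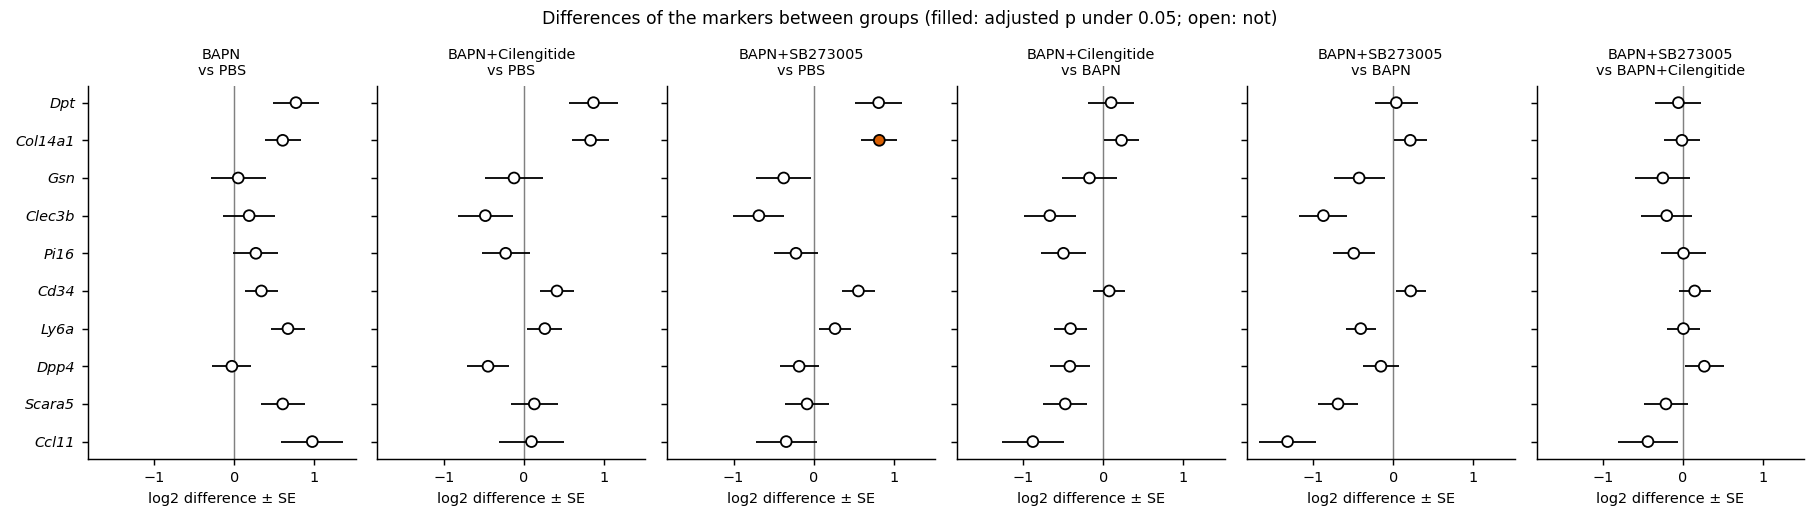
Log2 difference with its SE (x axis) of each marker (rows) in the 6 comparisons (panels); a filled point passed an edgeR adjusted p of 0.05 and an open point did not. The filled point is Col14a1 in SB273005 against PBS (0.82), and Ccl11 and Clec3b are the farthest to the left in both comparisons with BAPN.

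SB273005 and Cilengitide were set against each other across the 10 markers as 1 of the 6 comparisons. No dose is given for either. None of the 10 differences passed edgeR, as none of all genes did (0%), and none was under an unadjusted p of 0.05, against 9.21% of all genes; DESeq2 and limma called none, and no marker was without overlap, against 6.53% of all genes. The differences, SB273005 minus Cilengitide, were near 0 for Pi16 (0.01, 95% interval -0.60 to 0.61), Ly6a (0.01, -0.44 to 0.45), Col14a1 (-0.01, -0.49 to 0.46) and Dpt (-0.06, -0.68 to 0.56). They were widest for Ccl11 (-0.44, -1.26 to 0.38), Dpp4 (0.27, -0.26 to 0.80) and Gsn (-0.25, -0.99 to 0.49). For Cd34, Clec3b and Scara5 they were 0.15 (-0.29 to 0.58), -0.20 (-0.90 to 0.49) and -0.21 (-0.80 to 0.38). SB273005 replicates 1 to 3 lie in another library set than Cilengitide. With library set as a term Ccl11 turned to 0.13, Clec3b to 0.27, Dpt to 0.23 and Col14a1 to 0.24, Pi16 was at 0.36, Gsn at -0.12 and Dpp4 at 0.01. Against SB273005 replicate 4 alone, the library in the same set, Ccl11 was at 0.12 and Clec3b at 0.26. The intervals are wide enough that the compounds were not shown to act alike on any of the 10 genes.

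Within libraries, several markers stood in other proportions to Dpt under the inhibitors than in PBS. In PBS, Clec3b was at 0.913 to 1.13 times the FPKM of Dpt, Pi16 at 0.442 to 0.502 times and Gsn at 4.16 to 4.40 times. With Cilengitide the same ratios were 0.329 to 0.505, 0.181 to 0.258 and 1.65 to 2.75, and with SB273005 they were 0.178 to 0.534, 0.154 to 0.326 and 0.764 to 3.54. No inhibitor library reached the PBS range in any of the 3 ratios. Dpt itself differed from PBS by 0.87 with Cilengitide and 0.81 with SB273005, so a gene that keeps its PBS level has a lower ratio. Gsn, for instance, differed from PBS by -0.12 with Cilengitide (edgeR adjusted p = 0.898). The share of all genes whose ratio to Dpt parts in this way was not computed. Cilengitide and PBS libraries also lie in different library sets. The BAPN libraries ran more widely, at 0.349 to 1.01, 0.198 to 0.472 and 1.43 to 3.76, with replicate 1 the lowest and replicate 4 the highest in each. BAPN replicate 4 was inside the PBS range of the first 2 ratios, and BAPN replicate 1 was below all Cilengitide libraries in the third. Scara5 over Dpt also lay below PBS, at 0.121 or more there and up to 0.115 with Cilengitide and 0.109 with SB273005. Clec3b over Col14a1 did so too, at 3.11 or more in PBS and up to 1.83 and 2.22. Pi16 over Clec3b lay above PBS, at up to 0.508 there and from 0.511 with Cilengitide and 0.597 with SB273005. The ratios of Ccl11 and Dpp4 to Dpt overlapped with PBS in 1 inhibitor group each. That of Ccl11 was 0.0247 to 0.0384 in PBS and up to 0.0376 with Cilengitide, and that of Dpp4 was 0.00866 to 0.0133 in PBS and up to 0.00911 with SB273005. Dpt over Col14a1 had means of 3.45 in PBS, 3.90 under BAPN, 3.52 with Cilengitide and 3.48 with SB273005. Its libraries ran from 3.35 to 3.59 in PBS and 3.27 to 4.23 under BAPN. They spread more widely with the inhibitors, from 2.36 to 4.48 with Cilengitide and 2.27 to 4.17 with SB273005. These pairs were chosen after their values were seen, so no test was made.

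**Figure D3:**
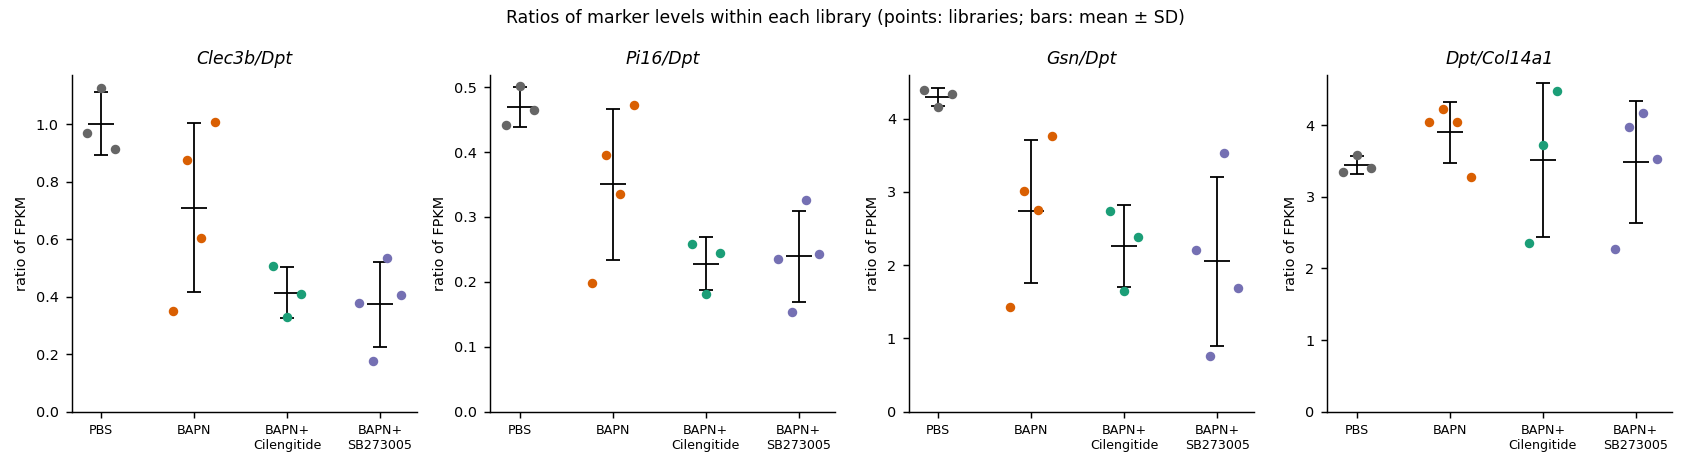
Ratio of the FPKM of pairs of markers within each library (y axis, from 0) by group (x axis); points are libraries and bars the mean ± SD. The PBS points of Clec3b, Pi16 and Gsn over Dpt (near 1.00, 0.469 and 4.30 on average) lie above all points of both inhibitor groups, and those of Dpt over Col14a1 do not.

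Levels can be compared between the genes because FPKM is per length, although the gene values rest on all exons of a gene together and run below the sum of its transcripts where these differ. In PBS the order by mean gene FPKM was Gsn (636 ± 123), Clec3b (149 ± 36.3), Dpt (148 ± 30.5), Pi16 (70.1 ± 17.2), Ly6a (58.3 ± 4.96), Col14a1 (43.0 ± 8.26), Cd34 (29.3 ± 6.80), Scara5 (19.4 ± 5.17), Ccl11 (4.70 ± 1.32) and Dpp4 (1.69 ± 0.394, all SD, n = 3). Among neighbours in this order, the ranges of Clec3b and Dpt, of Pi16 and Ly6a, of Col14a1 and Cd34 and of Cd34 and Scara5 overlapped, and the others did not. With SB273005 Dpt was at 251 ± 64.9 FPKM and Clec3b at 90.6 ± 36.5 FPKM (SD, n = 4), and Dpt was the higher in every library of that group. Summed over transcripts, PBS means were 122 FPKM for Pi16, 85.1 for Cd34, 77.3 for Ly6a and 71.4 for Col14a1. Cd34 then came before Ly6a and Col14a1, so its place depends on which length is used, while Pi16 kept its own.

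Among libraries, BAPN replicate 4 held the highest value of 6 markers and was among the 3 highest for 7. BAPN replicate 2 was among the 3 highest for 6 markers. SB273005 replicate 2 held the lowest value of 4 markers and was among the 3 lowest for 7, and PBS replicate 1 held the lowest value of 3. PBS replicate 1 therefore lowers the PBS mean for several markers at once; without it, the difference of BAPN from PBS was 0.59 for Dpt, 0.44 for Col14a1 and 0.14 for Cd34.

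Most markers came from a single main transcript. Dpt, Clec3b and Ccl11 had 1 annotated transcript each, Scara5-201 made up 99.97% of Scara5 and Dpp4-201 97.6% of Dpp4. Pi16-202, which codes 498 amino acids, held 79.0% of Pi16 on average (63.2 to 86.0% over the 14 libraries), and a retained-intron form, Pi16-203, held 12.2% (5.89 to 25.6%). Cd34 was divided between Cd34-201 and Cd34-202, coding 382 and 325 amino acids, the full-length protein and the form with a shortened cytoplasmic tail. Cd34-201 held 44.4 to 55.9% and Cd34-202 44.1 to 55.4% in all libraries, and both kept to means of 47.3 to 52.6% in every group. Col14a1 was divided among Col14a1-201 (1797 amino acids), Col14a1-203 (1794 amino acids) and the shorter Col14a1-204. They held 43.4% on average (11.4 to 53.7% over libraries), 10.2% (1.53 to 33.8%) and 46.4%. Col14a1-204 begins inside the gene, at chr15:55448826, and its 1561 annotated coding bases are not a whole number of codons. Whether it makes a protein was not tested. As shares of estimated counts, which do not correct for length, Col14a1-201 and Col14a1-204 held 63.5% and 22.6%. Ly6a had 3 transcripts at 10% or more, Ly6a-204, Ly6a-203 and Ly6a-201, which all code the same 134 amino acids in number and swung widely, Ly6a-204 from 8.99 to 77.6%. Such shares are estimates from reads that the transcripts have in common, and were described without a test.

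Gsn was the marker whose 2 main transcripts begin at separate starts, at or close to those shown above. Gsn-205 (18 exons, 731 amino acids) begins at chr2:35256380 and Gsn-201 (17 exons, 780 amino acids) at chr2:35282380; the longer protein is the secreted plasma form and the shorter the cytoplasmic one. Gsn-201 held 86.9, 43.9 and 49.7% of Gsn in the PBS libraries and 82.8, 75.7, 44.0 and 52.6% under BAPN. With Cilengitide its share was 50.0, 82.4 and 46.8% and with SB273005 66.9, 31.5, 62.2 and 42.0%. Nearly all of the rest was Gsn-205, from 12.7% in PBS replicate 1 to 68.2% in SB273005 replicate 2. Group means of Gsn-201 were 60.1 ± 23.3%, 63.8 ± 18.4%, 59.7 ± 19.7% and 50.6 ± 16.7% (SD, n = 3, 4, 3 and 4), so the spread within each group was wider than any gap between groups.

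**Figure D4:**
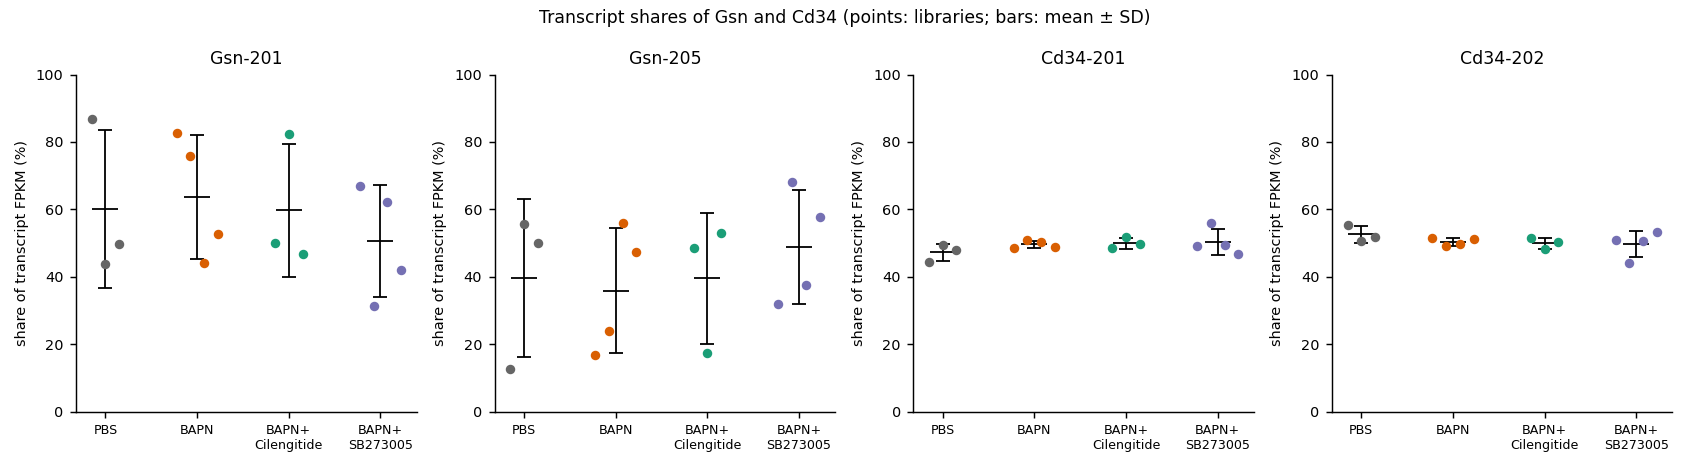
Share of the gene's transcript FPKM (y axis, %) given by the 2 main transcripts of Gsn and of Cd34 in each library, by group (x axis); bars are the mean ± SD. The Gsn shares run from 12.7 to 86.9% and overlap between groups, while the Cd34 shares stay between 44.1 and 55.9%.

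Other genes of the same cells were set beside the markers. No value with library set as a term is given for this list or those below. BAPN and Cilengitide against PBS run wholly across the library sets. Of 12 further genes of Pi16-type fibroblasts (Sema3c, Cd55, Ackr3, Anxa3, Tnxb, Procr, Efhd1, Creb5, Gfpt2, Igfbp6, Mfap5 and Cd248), none passed under BAPN alone, where the median difference was 0.22. Anxa3, an annexin, was 0.79 ± 0.15 above PBS under BAPN without passing (adjusted p = 0.0528). It rose with Cilengitide (0.78 ± 0.16, adjusted p = 0.0176) and with SB273005 (0.56 ± 0.15, adjusted p = 0.0311), and was the 1 gene of the 12 to pass. Of all genes tested, 3.98% rose with Cilengitide and 7.82% with SB273005. The list medians were -0.08 and 0.08. Against BAPN, 11 of the 12 were below 0 with each inhibitor, at medians of -0.27 and -0.17, and none passed. Medians over all genes were -0.0075 for Cilengitide and 0.019 for SB273005. Differences below 0 came as near to it as -0.00073 with Cilengitide and -0.011 with SB273005. Both comparisons share the BAPN libraries, and SB273005 replicates 1 to 3 lie in another library set.

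General fibroblast genes were a list of 14. Of these, Thy1, a GPI-anchored surface protein of fibroblasts, rose under BAPN, from 7.37 ± 1.30 to 19.2 ± 4.50 FPKM (log2 1.38 ± 0.21, adjusted p = 0.0239). Of all genes tested, 0.181% rose under BAPN, 3.98% with Cilengitide and 7.82% with SB273005. With Cilengitide 5 of the 14 rose and with SB273005 6, and none fell. Those with the smallest p in both were Thy1 (1.91 and 1.69), the procollagen enhancer Pcolce (1.38 and 1.12), Serpinf1 (0.94 and 0.79) and the matrix glycoprotein Fbln2 (1.10 and 1.43). List medians were 0.49 under BAPN, 0.43 with Cilengitide and 0.58 with SB273005. Activated fibroblast genes had the largest medians of the fibroblast lists: 0.99 under BAPN, 2.06 with Cilengitide and 1.80 with SB273005 over 11 genes tested. None of the 11 passed under BAPN, 7 rose with Cilengitide and 9 with SB273005, against 3.98% and 7.82% of all genes. Comp, a matrix protein of cartilage and scar, was at 10.8 ± 0.492 FPKM in PBS, 146 ± 100 with Cilengitide (3.79 ± 0.61, adjusted p = 0.00685) and 112 ± 91.8 with SB273005 (3.42 ± 0.59, adjusted p = 0.00475). Tnc, tenascin C, Runx1, a transcription factor, and Adam12, a metalloprotease, rose in both as well, by 2.06 and 1.50, 2.62 and 2.67, and 2.43 and 2.45. Neither list had a gene that passed against BAPN or between the inhibitors. Macrophage markers moved in the same comparisons, with 1 of 7 higher under BAPN, 6 with Cilengitide and 7 with SB273005. Of 7 smooth muscle markers 3 fell with SB273005, where 13.2% of all genes passed in either direction. The part of macrophages or smooth muscle in these lists was not tested.

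**Figure D5:**
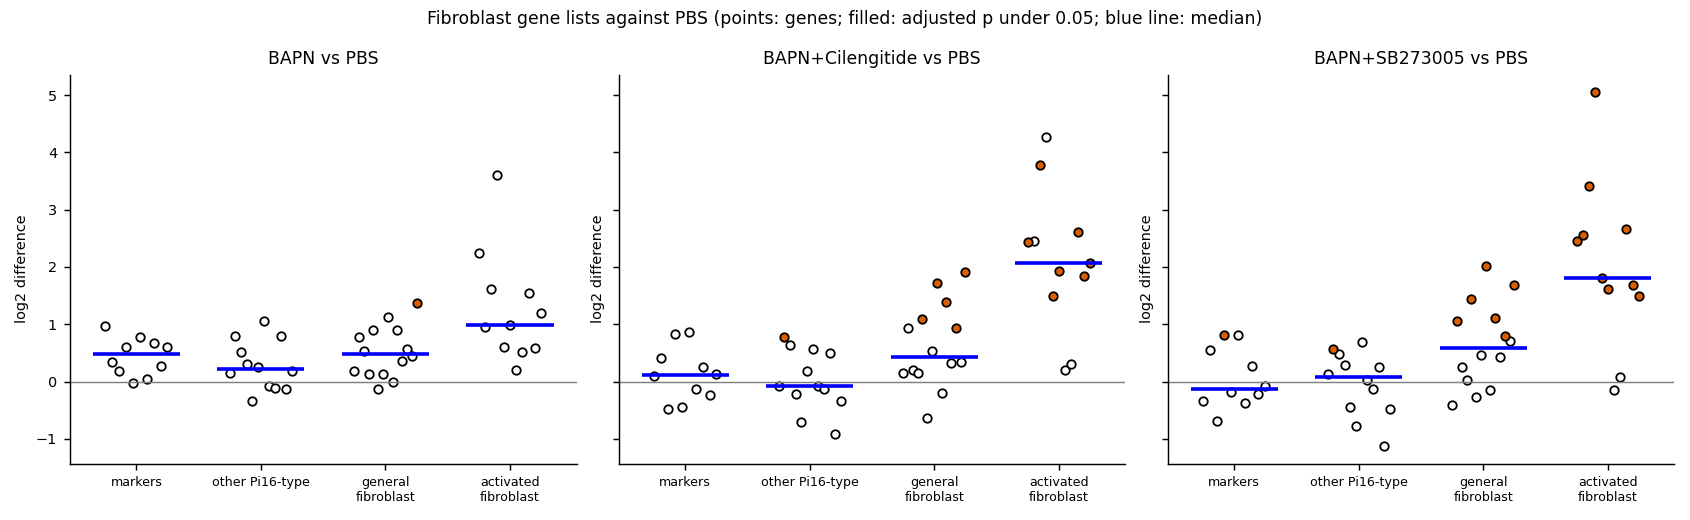
Log2 difference from PBS (y axis) of each gene (points) of the markers and of 3 other fibroblast lists (x axis) in 3 comparisons (panels) that share the PBS libraries; filled points passed an edgeR adjusted p of 0.05 and blue lines are medians. The markers and the other Pi16-type genes have medians from -0.13 to 0.47, against 0.99 to 2.06 for activated fibroblast genes.

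Relatives of the markers and partners of Ccl11 were listed as well. Of all genes tested, 5.58% passed in either direction with Cilengitide against PBS and 13.2% with SB273005. Among 20 tested relatives, none passed under BAPN. With Cilengitide 3 rose: Col16a1 (1.86 ± 0.36), a collagen of the same fibril-associated class as Col14a1, Crispld1 (1.27 ± 0.28), which shares the CAP domain of Pi16, and the scavenger receptor Scara3 (0.48 ± 0.12). With SB273005 5 rose and 1 fell, among them Col16a1 (1.93 ± 0.35), Clec11a (0.82 ± 0.22) and Msr1 (1.90 ± 0.54), and Svil, a gelsolin relative, fell by 0.66 ± 0.17. Fap, the close relative of Dpp4 that marks activated fibroblasts and was singled out after its values were seen, went from 1.74 ± 0.238 FPKM in PBS to 4.77 ± 1.41 with Cilengitide (1.49 ± 0.40, adjusted p = 0.0487) and 5.80 ± 2.25 with SB273005 (1.80 ± 0.39, adjusted p = 0.0121). Of the eosinophil genes, Ccr3 was at 0 to 0.0623 FPKM, Siglecf at 0 to 0.0450 and Epx at 0 to 0.0198 in all libraries, and Prg2 and Il5ra ran from 0 to 1.01 and from 0 to 0.727 FPKM; all 5 were too low to test. Of 9 chemokine and type 2 signalling genes tested, none passed under BAPN. With each inhibitor 4 rose, against 3.98% of all genes for Cilengitide and 7.82% for SB273005. These were Cxcl12 (1.49 and 1.48), Il13ra1 (0.87 and 0.92), Il4ra (1.57 and 1.63) and Ccl7 (2.79 and 2.67). Ccl7, a monocyte chemokine of the same cluster as Ccl11, was at 0.795 ± 0.196 FPKM in PBS and 8.60 ± 7.70 under BAPN, where its difference of 3.43 ± 0.74 did not pass (adjusted p = 0.0591).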

How the data were processed

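Bulk RNA sequencing libraries of mouse ascending aorta, 14 in 4 groups, were grouped by their labels, and every library entered the analysis. Per the submitters' processing notes, the genome was mm10 and the tools were HISAT2 2.2.1, an aligner, and StringTie 2.1.6, a transcript quantifier. The annotation, read filters and strand setting were not given in the sources used here. Values of overlapping or antisense genes and of near-identical copies are therefore uncertain. The authors deposited FPKM, which correct for length and library size, for each gene and each transcript. The deposited counts are estimated from coverage, and 99.995% of gene counts exactly equalled their summed transcripts, so the model of counting error is an approximation.

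Of 32289 genes, the 13294 that reached 1 FPKM in 3 or more libraries were tested on the deposited counts with edgeR 4.0.16 (quasi-likelihood, TMM, R 4.3.3) in 1 fit over all 14 libraries, with Benjamini-Hochberg adjustment over all genes tested and a threshold of 0.05. Each difference is a log2 fold change, with its SE and the 95% interval from it. Levels are mean ± SD of FPKM. limma 3.58.1, DESeq2 1.42.0, other filters, scalings and pseudocounts, a replicate block and leaving out each library were the alternatives, and library set as a term was added after seeing the data. The code was tested on simulated data.

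The rule for named genes was to describe all 10 markers, with their transcripts of 10% mean share or more, and, of each other list, the genes that passed, or the 4 of smallest p where more did. The markers and lists were chosen with earlier results of these data known.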

Additional observations from a re-analysis of the deposited data

Results flagged for a closer look

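Dpt in BAPN replicate 1 was at 342.4 FPKM, far above the other 3 BAPN libraries relative to their range. Cd34 in BAPN replicate 3 was at 30.2 FPKM, far below the other 3 BAPN libraries, which lay close together. Groups of 4 libraries were examined for each marker, 20 in all, and these 2 stood apart by Dixon's criterion at 95%, which chance passes in about 1 of 20 groups. Without BAPN replicate 1 the log2 difference of Dpt from PBS was 0.61 (adjusted p = 0.613), and without BAPN replicate 3 that of Cd34 was 0.42 (adjusted p = 0.486).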

How the results depend on the processing

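Counts of markers passing the threshold were 0, 0 and 1 for BAPN, Cilengitide and SB273005 against PBS and 0 in the other 3 comparisons. For Cilengitide against PBS the count was 2 in DESeq2 (Dpt, Col14a1), 1 with an FPKM minimum of 5, and 0 to 1 when 1 library was left out, the 1 being Col14a1 without SB273005 replicate 2 or 3. For SB273005 against PBS it was 3 in DESeq2, and 0 with no filter, in limma on rescaled FPKM (log2(TPM + 1)), with only the 2 groups in the fit, within the first library set and with library set added as a covariate, an alternative chosen after seeing the data. Leaving out 1 library gave 0 to 1 there: 0 without PBS replicate 1 or 2 or SB273005 replicate 1 or 4, and 1 without SB273005 replicate 2, when Cd34 passed in place of Col14a1. For SB273005 against BAPN it was 1 in DESeq2 (Ccl11). In the other alternatives run, counts were as in the first sentence. The share of all genes passing in each alternative is not given. With the replicate number as a replicate block the count for SB273005 against PBS was again 1, but Clec3b (-0.86, adjusted p = 0.0345) in place of Col14a1 (0.74, adjusted p = 0.0713). Deviations of same-numbered libraries correlated at -0.16 to 0.34 over 19 pairs, with a median of 0.15 and 12 above 0.1. Those of 54 pairs with other numbers had a median of -0.037 and 4 above 0.1. The labels do not say that same-numbered libraries are pairs, and whether they are was not tested. Which marker passed in SB273005 against PBS depended on this choice.

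Directions of several differences turned under alternatives, among them that of Ccl11 between the inhibitors (-0.44); the cause was not tested. With the library set as a term, BAPN against PBS gave Pi16 -0.22, Clec3b -0.48, Dpp4 0.31 and Gsn -0.13, Cilengitide against PBS gave Scara5 -0.099 and Ccl11 -0.72, and SB273005 against Cilengitide gave Dpt 0.23, Ly6a -0.073, Clec3b 0.27, Col14a1 0.24 and Ccl11 0.13. Within the second set, with SB273005 replicate 4 alone, the last comparison gave Dpt 0.22, Ly6a -0.083, Clec3b 0.26, Dpp4 -0.0035, Col14a1 0.23 and Ccl11 0.12. On log2(TPM + 1), Dpp4 in BAPN against PBS was 0.022, Gsn in Cilengitide against PBS 0.029, Dpt in SB273005 against BAPN -0.15, and in SB273005 against Cilengitide Pi16 was -0.25, Cd34 -0.13 and Ly6a -0.25. Under the replicate block Gsn in BAPN against PBS was -0.043, Dpt in SB273005 against BAPN -0.031 and Pi16 in SB273005 against Cilengitide -0.11. Dpt in SB273005 against BAPN was -0.0088 with no filter and -0.038 in limma with either pseudocount. For SB273005 against Cilengitide, Pi16 was -0.00081 with DESeq2's size factors and in DESeq2, -0.036 with no filter, and -0.0091 and -0.0093 in limma; Ly6a was -0.0021 with the size factors and in DESeq2, -0.038 with no filter, and -0.011 and -0.012 in limma; Col14a1 was 0.023 with an FPKM minimum of 5.

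Leaving out 1 library moved some directions across 0. In BAPN against PBS, Clec3b ran from -0.014 to 0.39, Dpp4 from -0.18 to 0.22 and Gsn from -0.12 to 0.18. In Cilengitide against PBS, Scara5 ran from -0.093 to 0.34, Ccl11 from -0.078 to 0.39 and Gsn from -0.35 to 0.039. In SB273005 against PBS, Scara5 ran from -0.31 to 0.13 and Dpp4 from -0.32 to 0.068. Against BAPN, Dpt ran from -0.089 to 0.36 with Cilengitide and from -0.089 to 0.20 with SB273005, and Cd34 from -0.0066 to 0.11 with Cilengitide. Between the inhibitors Pi16 ran from -0.20 to 0.23, Dpt from -0.32 to 0.12, Cd34 from -0.018 to 0.25, Ly6a from -0.088 to 0.073, Scara5 from -0.39 to 0.010 and Col14a1 from -0.11 to 0.11. Single values were the differences of the markers and, set against shares from counts, the transcript shares. Over all of them 1439 alternatives stayed the same, which for a difference means in direction and side of the threshold. Of the differences 78 turned, 10 came to pass and 11 ceased to pass, and 3 transcript shares moved by their SD over libraries or more. Ccl11 and Dpp4, at the lowest counts, were the least precisely measured by counting.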
